A study of Mus musculus with 6 samples.

Results

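Aminoacyl-tRNA synthetases are the enzymes that join each amino acid to its transfer RNA. Their genes were described here in fibroblasts, which are connective tissue cells, cultured from mouse embryos. The genes were taken by name from the array annotation: 20 cytosolic synthetase genes, 16 mitochondrial ones (whose symbols end in 2) and 3 scaffold proteins, 39 in all. Of these, 29 had a value of their own among the 12393 genes tested: 18 cytosolic synthetases, 8 mitochondrial ones and all 3 scaffold proteins. The other 10 genes (Dars, Mars, Aars2, Cars2, Lars2, Mars2, Nars2, Vars2, Wars2 and Yars2) were not analysed here. RNA came from wild-type fibroblasts starved for 6 h (3 arrays) and from wild-type fibroblasts kept in normal medium as control (3 arrays). What the starved cells were deprived of (amino acids, glucose, serum or all of these) is not stated in the labels, nor is whether the cells were primary or immortalised. The arrays of a group are called biological replicates without a statement that they came from separate cultures, so the spread behind each p-value is that between these 6 arrays and may be technical.

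Each synthetase recognises 1 amino acid and its transfer RNAs, and the charged transfer RNA is then carried to the ribosome by an elongation factor. In animal cells several cytosolic synthetases are held in a multisynthetase complex on the scaffold proteins Aimp1, Aimp2 and Eef1e1, while the others are free, and mitochondria import a set of synthetases of their own that is encoded by nuclear genes. Many cytosolic synthetase genes are known targets of Atf4, a transcription factor whose translation increases when uncharged transfer RNA activates the kinase Gcn2 (Eif2ak4), and which binds a C/EBP-ATF response element.

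The promoters below are the 5 of the measured cytosolic synthetases that hold the core of this element, written TGATGNAA (N is any base; both strands were searched). The sequences are those of RefSeq on build GRCm38.p6, and run 5′ to 3′ along the gene from 250 bases before the transcript start to 50 bases after it, with the matches in capitals. They lie at chr8:111033592-111033891 (+ strand) for Aars, chr6:55037751-55038050 (+ strand) for Gars, chr13:49681880-49682179 (+ strand) for Iars, chr15:11399609-11399908 (- strand) for Tars and chr4:129189653-129189952 (+ strand) for Yars.
Aars: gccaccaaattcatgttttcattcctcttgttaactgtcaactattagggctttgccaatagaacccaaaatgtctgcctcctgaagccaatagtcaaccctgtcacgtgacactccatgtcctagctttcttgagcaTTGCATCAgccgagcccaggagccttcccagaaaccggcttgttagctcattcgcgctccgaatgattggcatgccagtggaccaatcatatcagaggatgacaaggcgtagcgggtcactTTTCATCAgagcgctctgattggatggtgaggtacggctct
Gars: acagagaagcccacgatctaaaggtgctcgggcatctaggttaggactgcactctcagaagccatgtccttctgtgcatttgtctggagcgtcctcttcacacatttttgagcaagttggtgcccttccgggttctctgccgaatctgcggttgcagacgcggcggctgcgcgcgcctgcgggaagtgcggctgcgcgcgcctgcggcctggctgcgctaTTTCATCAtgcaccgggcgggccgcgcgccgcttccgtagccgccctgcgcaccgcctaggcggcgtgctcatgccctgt
Iars: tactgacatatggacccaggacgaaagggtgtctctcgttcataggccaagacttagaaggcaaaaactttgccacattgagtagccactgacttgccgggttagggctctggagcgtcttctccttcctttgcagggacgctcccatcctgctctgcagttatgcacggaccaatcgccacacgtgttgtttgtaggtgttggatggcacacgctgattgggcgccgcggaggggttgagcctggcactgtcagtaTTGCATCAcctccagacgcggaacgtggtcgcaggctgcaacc
Tars: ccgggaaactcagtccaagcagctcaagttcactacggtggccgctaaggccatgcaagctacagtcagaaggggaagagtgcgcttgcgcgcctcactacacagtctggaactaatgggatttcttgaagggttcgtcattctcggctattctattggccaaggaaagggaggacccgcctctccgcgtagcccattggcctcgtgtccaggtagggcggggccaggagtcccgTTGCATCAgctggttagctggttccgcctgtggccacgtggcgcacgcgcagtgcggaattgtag
Yars: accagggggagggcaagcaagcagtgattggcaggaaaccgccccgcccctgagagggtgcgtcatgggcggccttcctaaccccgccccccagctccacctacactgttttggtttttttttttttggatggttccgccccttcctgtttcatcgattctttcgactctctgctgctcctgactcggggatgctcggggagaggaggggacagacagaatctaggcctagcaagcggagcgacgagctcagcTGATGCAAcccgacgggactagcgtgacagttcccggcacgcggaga

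Aars, the alanine enzyme, held 2 matches and the others 1 each. In Aars the first base of one match lay 112 bases before the transcript start and that of the other was base 10 after it. In Gars (glycine) the match began 30 bases and in Tars (threonine) 15 bases before the start, and in Iars (isoleucine) and Yars (tyrosine) it began at bases 8 and 4 of the transcript. The matched letters on the printed strand were TTGCATCA in Iars, Tars and the upstream match of Aars, TTTCATCA in Gars and the other match of Aars, and TGATGCAA in Yars. None of these matches overlapped an E-box, CACGTG. Levels below are log2 array signals per array, which cannot be compared between genes, and a difference is the starved mean minus the control mean of these values.

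Array medians lay between 6.73 and 6.81 and each array's highest value between 14.52 and 14.59. Arrays correlated at 0.997 or more within a group over all genes and at 0.984 or less between groups, and no array stood apart from its group. Of 10 fibroblast markers 6 were called higher and 2 lower in starved cells. The higher ones were Col3a1 (0.59), Fn1 (0.52), Col1a1 (0.47), Pdgfra (0.34), Dcn (0.31) and Vim (0.20). The lower ones were Thy1 (-0.40) and Pdgfrb (-0.28). Beside these and the marker counts that follow, 22.0% of all genes were called lower and 22.1% higher. Col1a2 lay between 14.02 and 14.18 and Vim between 13.92 and 14.16 on all arrays, while Thy1 lay at 4.60 ± 0.0428 in starved and 4.99 ± 0.0364 in control arrays. The markers of other cell types lay between 2.95 and 7.78. Of 8 markers of macrophages and blood 1 was called higher (Cd68, 0.44) and 1 lower (Cd14, -0.46) in starved cells, of 4 endothelial markers 2 were called lower (Kdr, -0.27, and Pecam1, -0.27), and of 4 epithelial markers 1 was called higher (Cdh1, 0.91). Ptprc, the defining blood cell marker, lay between 2.99 and 3.32 on all arrays. The part of other cells in the results below was not tested.

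Starved fibroblasts had lower levels of most cytosolic synthetases, while the mitochondrial synthetases went several ways. Tested by limma, with p-values adjusted by Benjamini and Hochberg's method across the 12393 genes and called below 0.05, 13 of 18 cytosolic synthetases were called lower, 1 higher and 4 did not pass. Of the 8 mitochondrial synthetases 3 were called lower, 1 higher and 4 did not pass. Of the 3 scaffold proteins 2 were called lower and 1 higher (Aimp1). None of the higher calls held after centring on poly-A spike-ins, where Aimp1 lay below 0. In the deposited scaling 22.0% of all genes were called lower and 22.1% higher. The median difference was -0.37 for the cytosolic synthetases, -0.10 for the mitochondrial ones and -0.59 for the scaffold proteins, against -0.05 over all genes. The difference between the cytosolic and mitochondrial lists was not tested. Control means lay between 9.27 and 12.21 for the cytosolic synthetases and between 6.73 and 8.85 for the mitochondrial ones. All measured mitochondrial genes were thus dimmer, and folds of dim genes are compressed on these arrays. The part of signal level in the contrast of the lists was not tested. Starved and control arrays did not overlap for 22 of the 29 genes (18 lower and 4 higher), against 54.0% of all genes. In bulk RNA, fewer cells of a type and less RNA per cell cannot be told apart.

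**Figure D1:**
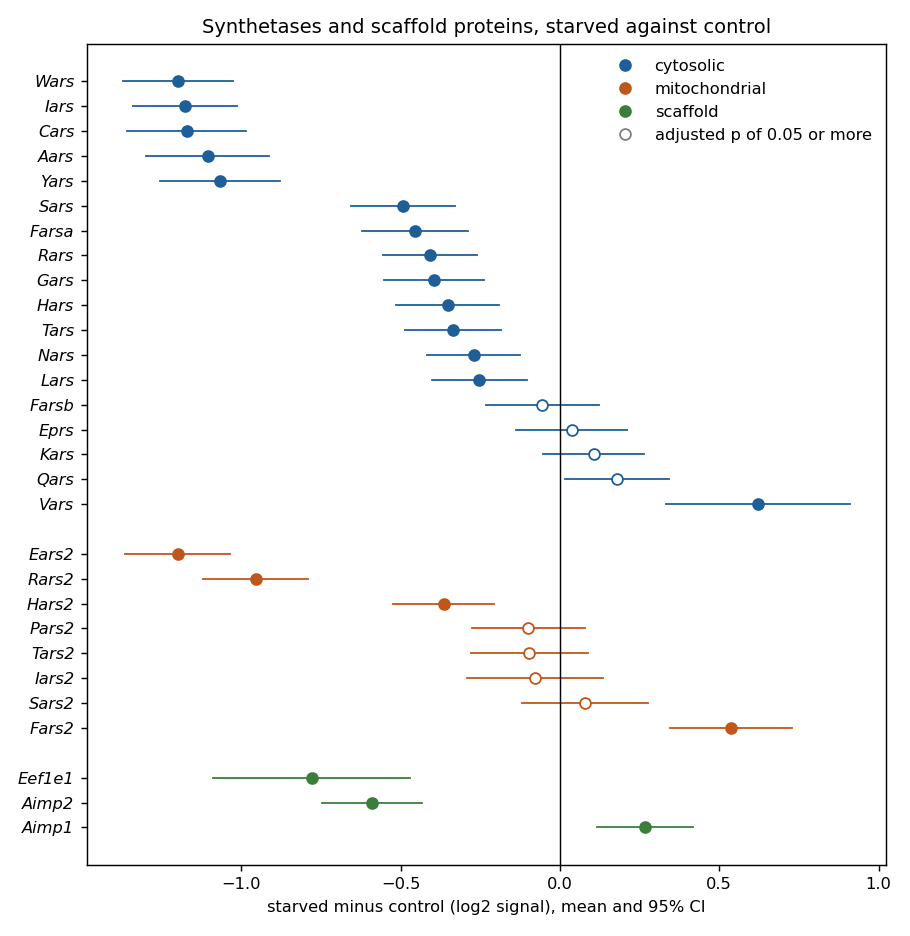
Starved minus control difference of each measured gene on the log2 scale (horizontal axis), with its 95% confidence interval from limma, for cytosolic synthetases, mitochondrial synthetases and scaffold proteins. Filled points passed an adjusted p of 0.05. The 5 cytosolic genes at the top lie between -1.20 and -1.07, apart from the next at -0.49. Vars, Fars2 and Aimp1 are called higher in the deposited scaling, but none of them after centring on poly-A spike-ins, where Aimp1 lies below 0.

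A group of 5 cytosolic synthetases fell by more than 1 on the log2 scale. Wars, the tryptophan enzyme, known in human cells as a gene induced by interferon-gamma, read 8.26, 8.32 and 8.13 in starved arrays, against 9.46, 9.49 and 9.36 in control arrays. It was lowered 2.30-fold (log2 difference -1.20, SE 0.08, adjusted p = 1.7e-06). Its starved arrays all lay more than 1 unit under every control array. Iars, the isoleucine enzyme of the multisynthetase complex, read 9.31, 9.39 and 9.41 in starved arrays, against 10.54, 10.47 and 10.63 in control arrays (log2 difference -1.18, SE 0.07, adjusted p = 1.41e-06). For Cars, which charges cysteine transfer RNA, the values were 8.24, 8.23 and 8.24 in starved arrays, against 9.55, 9.42 and 9.26 in control arrays, a 2.25-fold fall (log2 difference -1.17, SE 0.08, adjusted p = 3.36e-06). The 3 starved arrays of Cars were nearly identical, and the control arrays spread more widely (SD 0.0047 in starved and 0.15 in control arrays). Aars read 11.11, 11.23 and 10.96 in starved arrays, against 12.27, 12.23 and 12.12 in control arrays, 2.15-fold lower in starved cells (log2 difference -1.11, SE 0.09, adjusted p = 5.75e-06). Yars read 8.58, 8.43 and 8.33 in starved arrays, against 9.56, 9.56 and 9.42 in control arrays, 2.10-fold lower (log2 difference -1.07, SE 0.08, adjusted p = 6.76e-06). For each of the 5 genes the groups were clearly apart. These enzymes serve amino acids of different kinds, and of the 5 only Iars is a member of the complex.

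The other 8 fallen cytosolic synthetases fell by less than 0.5 on their brightest probe sets. The dimmer probe sets of Nars, Sars and Hars differed by -0.59, -0.52 and -0.51. Sars, the serine enzyme, read 10.91, 11.05 and 10.90 in starved arrays, against 11.49, 11.46 and 11.39 in control arrays (log2 difference -0.49, SE 0.07, adjusted p = 0.000375), and Farsa, the catalytic subunit of the phenylalanine enzyme, read 8.77, 8.88 and 8.81 in starved arrays, against 9.36, 9.19 and 9.27 in control arrays (log2 difference -0.46, SE 0.07, adjusted p = 0.000707). In both genes every starved array was below every control array. Rars, the arginine enzyme of the complex, read 10.06, 9.99 and 9.97 in starved arrays, against 10.41, 10.41 and 10.42 in control arrays, a difference of -0.41 (adjusted p = 0.000698). Gars, whose gene encodes both the cytosolic and the mitochondrial glycine enzyme, read 11.63, 11.50 and 11.54 in starved arrays, against 11.98, 11.91 and 11.97 in control arrays (difference -0.40, adjusted p = 0.00114). The starved values of Gars were thus 1.32-fold lower. Hars, the histidine enzyme, averaged 9.60 ± 0.0814 in starved and 9.95 ± 0.0431 in control arrays (SD, n = 3 each), a difference of -0.35 (adjusted p = 0.00281). Tars averaged 10.75 ± 0.0179 in starved and 11.09 ± 0.0555 in control arrays (-0.34, adjusted p = 0.00243), and Nars, the asparagine enzyme, 11.49 ± 0.033 in starved and 11.77 ± 0.00787 in control arrays (-0.27, adjusted p = 0.00685). These are falls of 1.28-, 1.26- and 1.21-fold. Lars, the leucine enzyme, which also takes part in leucine sensing for mTORC1, had the smallest called fall (log2 difference -0.25, SE 0.07, adjusted p = 0.0116). It averaged 10.75 ± 0.0284 in starved and 11.00 ± 0.0488 in control arrays, and its call was lost without control replicate 1 (-0.23, adjusted p = 0.0565).

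Vars, the valine enzyme, was the 1 cytosolic synthetase called higher. Its values were 10.50, 10.55 and 10.01 in starved arrays, against 9.75, 9.68 and 9.76 in control arrays, 1.54-fold higher in starved cells (log2 difference 0.62, SE 0.13, adjusted p = 0.00312). The groups did not overlap, but starved replicate 3 lay nearer to the control arrays than to the other starved arrays, and after centring on poly-A spike-ins the gene no longer passed (0.19, adjusted p = 0.118). Vars is known to work bound to the elongation factor complex that loads transfer RNA on the ribosome, and not in the multisynthetase complex.

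The remaining 4 cytosolic genes did not pass. Eprs, which joins the glutamate and proline enzymes in 1 protein, read 10.66, 10.58 and 10.46 in starved arrays, against 10.52, 10.47 and 10.60 in control arrays, with a difference of 0.036 (95% CI -0.14 to 0.21). Kars, which like Gars encodes both the cytosolic and the mitochondrial enzyme, here for lysine, differed by 0.11 (95% CI -0.054 to 0.26). For Qars, the glutamine enzyme, all starved arrays lay above all control arrays (10.04, 9.88 and 9.88 in starved arrays, against 9.78, 9.75 and 9.74 in control arrays), with a difference of 0.18 (95% CI 0.0143 to 0.34, adjusted p = 0.0748). Farsb, the partner subunit of Farsa, averaged 9.83 ± 0.063 in starved and 9.89 ± 0.11 in control arrays and differed by -0.055 (95% CI -0.23 to 0.12). Only for Qars did the groups not overlap, and only its interval lay wholly above 0. The subunits Farsa and Farsb work in 1 enzyme, and 1 of them was called lower while the other did not pass.

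**Figure D2:**
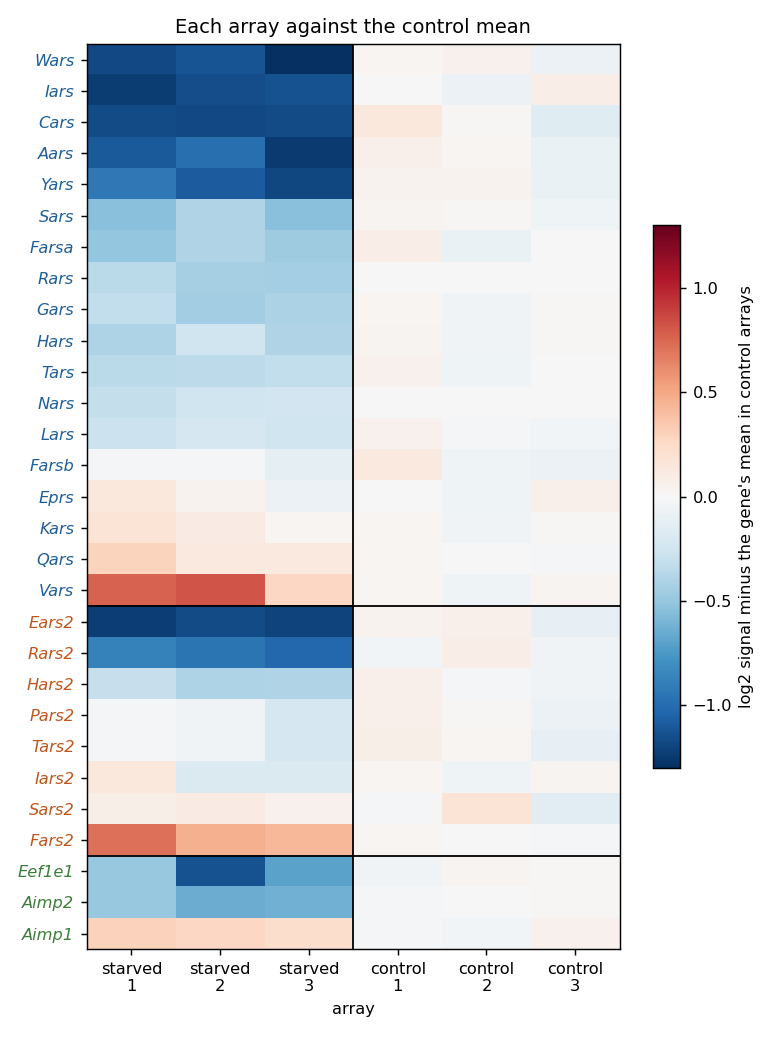
Each array's log2 signal minus the mean of that gene's control arrays, blue where lower and red where higher, with starved arrays on the left and control arrays on the right, and genes in rows by group and difference. Wars, Iars, Cars, Aars, Yars, Ears2 and Rars2 are dark blue in all 3 starved arrays, and Vars, Fars2 and Aimp1 are red there, with starved replicate 3 of Vars paler than the other two.

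The synthetases of the multisynthetase complex and the free ones were also counted apart, with no test of the difference. Of the 6 measured synthetases of the complex 3 were called lower (Iars, Rars and Lars), 0 higher, and 3 did not pass (Eprs, Kars and Qars), with a median of -0.11. Dars and Mars, also of the complex, were not analysed here, while all listed free cytosolic synthetases were measured. Among the 12 free cytosolic synthetases 10 were called lower, 1 was higher (Vars) and 1 did not pass (Farsb), with a median of -0.43. Synthetases also fall into structural class I and class II, which attach the amino acid to different hydroxyl groups of the transfer RNA's last nucleotide. Of 8 class I genes 6 were lower and 1 higher (median -0.74), and of 9 class II genes 7 were lower and 0 higher (median -0.35). Eprs, which holds both classes in 1 protein, was counted in neither. Over all genes 22.0% were called lower and 22.1% higher, with a median of -0.05. The genes that fell by more than 1 were 4 of class I (Wars, Iars, Cars and Yars) and 1 of class II (Aars).

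Among the scaffold proteins, Eef1e1 and Aimp2 fell, and Aimp1 rose in the deposited scaling but lay below 0 after centring on poly-A spike-ins. Eef1e1, which binds the methionine enzyme in the complex, read 8.85, 8.21 and 8.65 in starved arrays, against 9.30, 9.38 and 9.36 in control arrays (log2 difference -0.78, SE 0.14, adjusted p = 0.00118). The control arrays lay close together, and starved replicate 2 was lower than the other starved arrays. Aimp2, the central scaffold of the complex, read 9.06, 8.91 and 8.93 in starved arrays, against 9.54, 9.56 and 9.57 in control arrays (log2 difference -0.59, SE 0.07, adjusted p = 9.29e-05). Aimp1, which is also the precursor of a secreted cytokine, read 10.17, 10.15 and 10.11 in starved arrays, against 9.85, 9.84 and 9.93 in control arrays, 1.20-fold higher (log2 difference 0.27, SE 0.07, adjusted p = 0.0089). All 3 genes had groups that did not overlap, as did 54.0% of all genes. The call of Aimp1 was lost when the arrays were centred on spike-in controls: its difference was 0.08 (adjusted p = 0.42) centred on hybridization spike-ins and -0.16 (adjusted p = 0.146) centred on poly-A spike-ins.

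Among the mitochondrial synthetases, Ears2 and Rars2 fell most. Ears2, the glutamate enzyme, read 5.56, 5.62 and 5.58 in starved arrays, against 6.83, 6.85 and 6.68 in control arrays, 2.30-fold lower (log2 difference -1.20, SE 0.07, adjusted p = 1.28e-06). Rars2, the arginine enzyme, read 7.96, 7.89 and 7.82 in starved arrays, against 8.81, 8.93 and 8.80 in control arrays, 1.94-fold lower (log2 difference -0.96, SE 0.07, adjusted p = 5.64e-06). Both falls were as plain in single arrays as those of the leading cytosolic genes, with no overlap. For Ears2, however, the 2 dimmer probe sets did not pass (-0.09 and -0.17), at mean levels between 3.94 and 4.53. Hars2, the histidine enzyme, averaged 7.63 ± 0.0582 in starved and 7.99 ± 0.0622 in control arrays (log2 difference -0.37, SE 0.07, adjusted p = 0.00207).

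Fars2, the phenylalanine enzyme of mitochondria, rose. It read 8.58, 8.33 and 8.30 in starved arrays, against 7.89, 7.86 and 7.85 in control arrays, 1.45-fold higher (log2 difference 0.54, SE 0.09, adjusted p = 0.000609), a call lost after centring on poly-A spike-ins (0.11, adjusted p = 0.344). All starved arrays lay above the control arrays, and starved replicate 1 was highest. The other 4 did not pass, with overlapping groups. Pars2 (proline) differed by -0.099 (95% CI -0.28 to 0.078), Tars2 (threonine) by -0.096 (95% CI -0.28 to 0.089), Iars2 (isoleucine) by -0.080 (95% CI -0.29 to 0.13) and Sars2 (serine) by 0.079 (95% CI -0.12 to 0.28). Iars2 read 7.60, 7.28 and 7.29 in starved arrays, against 7.49, 7.41 and 7.51 in control arrays. Its starved replicate 1 lay above all control arrays and the other two starved arrays below all of them.

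Where the cytosolic and the mitochondrial enzyme for an amino acid were both measured, the log2 ratio of the cytosolic to the mitochondrial gene was taken within each array. A constant added to all log2 values of an array leaves this ratio as it is. A step that depends on signal level, such as quantile normalization, can move it. Only the change of the ratio between groups has a meaning. For Iars over Iars2 the ratio was 1.71, 2.11 and 2.12 in starved arrays, against 3.05, 3.06 and 3.12 in control arrays, a change of -1.10. Farsa over Fars2 gave 0.19, 0.54 and 0.51 in starved arrays, against 1.47, 1.32 and 1.42 in control arrays (-0.99). In both pairs the cytosolic gene lost ground to its partner in every starved array, in the first through the fall of Iars and in the second as Farsa was lower and Fars2 higher. The ratio changed by -0.59 for Farsb over Fars2, by -0.57 for Sars over Sars2 and by -0.24 for Tars over Tars2, without overlap. It went the other way for Rars over Rars2 (2.10, 2.10 and 2.14 in starved arrays, against 1.60, 1.48 and 1.62 in control arrays, a change of 0.55) and for Eprs over Ears2 (5.11, 4.95 and 4.88 in starved arrays, against 3.69, 3.62 and 3.92 in control arrays, a change of 1.24). Rars2 fell more than Rars, and Ears2 fell while Eprs did not pass. With the mean of each gene's probe sets the change of Eprs over Ears2 was 0.46. On their brightest probe sets Hars and Hars2, which lie next to each other in the genome, fell by nearly the same amount. Their ratio overlapped (a change of 0.012), as did that of Eprs over Pars2 (0.14). The dimmer probe sets differed by -0.51 for Hars and by -0.33 for Hars2. An exact two-sided permutation test, which cannot go below 0.1 with 3 arrays against 3, gave p = 0.1 for each of the 7 pairs without overlap (0.129 adjusted over the 9 pairs). The exact test gave p = 0.3 for Eprs over Pars2 and p = 0.8 for Hars over Hars2. Pairs that share Fars2 or Eprs are not separate from each other. For Farsb over Fars2 the change came mostly from Fars2 (0.54), as Farsb differed by -0.055 and did not pass. Among single genes, 54.0% of all genes had groups without overlap.

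**Figure D3:**
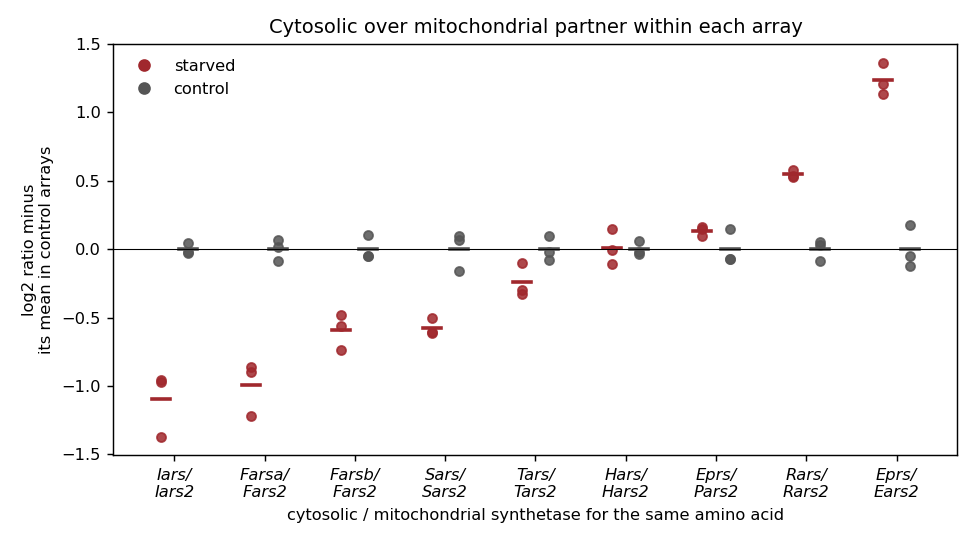
Log2 ratio of the cytosolic to the mitochondrial synthetase for the same amino acid within each array, minus its mean in control arrays (vertical axis), for 9 pairs. Points are arrays, starved on the left of each pair and control on the right, and bars are means. The ratio is lower in starved arrays without overlap in 5 pairs, higher in 2 (Rars over Rars2 and Eprs over Ears2) and overlaps in 2. Pairs that share Fars2 or Eprs are not separate from each other.

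Of the 29 genes, 15 had several probe sets, and in 13 of them these were all called the same way. No gene had probe sets called in opposite directions. All 4 probe sets of Wars were lower (-1.20, -1.30, -0.93 and -1.13), as were both of Aars (-1.11 and -1.14), Iars (-1.18 and -1.09), Sars (-0.49 and -0.52), Hars (-0.35 and -0.51), Nars (-0.27 and -0.59), Aimp2 (-0.59 and -0.53) and Hars2 (-0.37 and -0.33). The dimmer probe set of Cars, at 5.23 in starved and 5.58 in control arrays, fell by 0.35. Both of Fars2 were higher (0.54 and 0.69). The 2 genes with mixed calls were Ears2, above, and Qars, where 1 dimmer probe set was called higher (0.23, adjusted p = 0.038) and the brightest was not when each probe set was tested on its own. None of the 3 probe sets of Eprs, the 4 of Farsb and the 2 of Tars2 passed.

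The 5 cytosolic synthetases whose printed promoters hold TGATGNAA were all called lower, with a median of -1.07 (from -1.18 to -0.34). Of the 6 cytosolic synthetases with a promoter in the table and no match (Eprs, Farsa, Farsb, Kars, Qars and Sars), 2 were called lower and 0 higher, with a median of -0.01 (from -0.49 to 0.18). Of the 7 cytosolic synthetases whose promoters were not searched, 6 were called lower and 1 higher, with a median of -0.35 (from -1.20 to 0.62), so falls were common there too. Over all genes 22.0% were called lower and 22.1% higher. The sets are small, and the differences between them were not tested. A match was found in 5 of 11 cytosolic synthetases, in 0 of 6 mitochondrial ones and in 0 of 3 scaffold proteins, against 4.51% of 27025 genes with a promoter in the table. CACGTG, the E-box bound by Myc and by the Tfeb family, was in 4 of 11 cytosolic promoters (Aars, Iars, Tars and Farsb) and in that of Ears2, against 8.09% of all genes. GCATGCGC, the core of the site of the nuclear respiratory factor Nrf1, a regulator of mitochondrial genes, was in the promoter of Rars2 and in 0 of 11 cytosolic ones, against 3.05%. A match is only a run of letters and says nothing of binding. The promoters of Cars, Hars, Lars, Nars, Rars, Vars, Wars, Hars2 and Pars2 were not searched, Wars and Cars of the 5 leading genes among them.

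**Figure D4:**
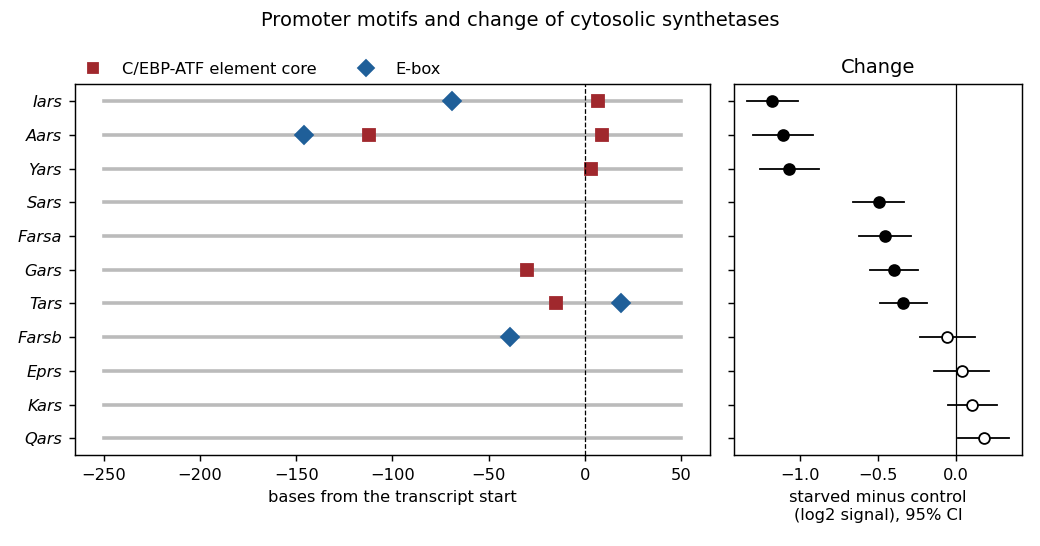
Left, positions of the C/EBP-ATF element core (squares) and the E-box (diamonds) in bases from the transcript start, for the 11 cytosolic synthetases with a promoter in the table, from 250 bases before the start to 50 after it. Right, each gene's starved minus control difference (log2) with its 95% confidence interval. The 5 genes with squares are filled points below 0, and the genes at the bottom (Farsb, Eprs, Kars and Qars) have no square.

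Other genes of charging, transfer RNA supply and the amino acid response were described from lists of their own. Of 14 genes that deliver or charge transfer RNA 7 were called lower and 0 higher, against 22.0% and 22.1% of all genes, with a median of -0.21. Xpot, which exports transfer RNA from the nucleus, read 8.33, 8.27 and 8.36 in starved arrays, against 10.07, 9.90 and 9.93 in control arrays, 3.13-fold lower (log2 difference -1.65, SE 0.07, adjusted p = 2.01e-07). This fall was larger than that of any synthetase. Mtfmt, which formylates the initiator transfer RNA of mitochondria, fell by 0.54 (adjusted p = 0.000131) and Tufm, the mitochondrial elongation factor, by 0.38 (adjusted p = 0.00182). Eef1a1, the cytosolic elongation factor that takes up charged transfer RNA, averaged 14.30 ± 0.0449 in starved and 14.29 ± 0.0317 in control arrays, close to the arrays' highest values, and did not pass (adjusted p = 0.958).

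Of 29 genes for making and maturing transfer RNA 10 were called lower (34.5%) and 6 higher (20.7%), with a median of -0.12. Over all genes these shares were 22.0% and 22.1%, so the share called higher was near that of all genes. The RNA polymerase III subunit Polr3e fell by 1.42, and Rpp14, a subunit of ribonuclease P, fell by 0.77. Polr3g, another subunit, was called lower, at 4.12, 3.83 and 3.87 in starved arrays, against 5.40, 5.22 and 5.03 in control arrays. Its starved signals were as dim as those of markers of other cell types, and it was among the dimmest 40% of genes, so the size of its fall is uncertain. The fall of Polr3e rests on its brighter probe set, and the dimmer one, the only one left without probe sets that can bind several transcripts, gave -0.13 (adjusted p = 0.236). Maf1, a repressor of RNA polymerase III, read 11.01, 10.90 and 10.82 in starved arrays, against 10.13, 10.14 and 10.03 in control arrays, 1.76-fold higher (log2 difference 0.81, SE 0.08, adjusted p = 1.92e-05). Nsun2, a transfer RNA methyltransferase, rose by 0.40 and Rpp30 by 0.38 in the deposited scaling, and both lay slightly below 0 after centring on poly-A spike-ins (-0.024 and -0.044).

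Of 14 genes of the amino acid response 10 were called lower and 0 higher, against 22.0% and 22.1% of all genes, with a median of -0.63. Atf4 itself read 11.59, 11.56 and 11.50 in starved arrays, against 12.47, 12.46 and 12.44 in control arrays, 1.88-fold lower (log2 difference -0.91, SE 0.07, adjusted p = 3.93e-06). Its starved arrays were all below its control arrays. Called lower were 5 of 5 cytosolic synthetases with a C/EBP-ATF element core, 2 of 6 without it and 6 of 7 whose promoters were not searched. A link to the level of Atf4 was not tested. The kinase gene Eif2ak4 fell by 0.48 (adjusted p = 0.00475). The Atf4 target Trib3, a pseudokinase, fell by 2.44 and Chac1, which degrades glutathione, by 2.26. Asns, asparagine synthetase and a known Atf4 target, did not pass (difference -0.090, 95% CI -0.25 to 0.0714), and its promoter held a match. Asns was called lower under both spike-in centrings, as were 75.2% of all genes on poly-A spike-ins and 6102 of 12393 on hybridization spike-ins. Matches were found in 4 of 14 promoters of this list (Asns, Chac1, Slc7a11 and Trib3), against 4.51% of all genes. None was found in 11 genes that deliver or charge transfer RNA, Xpot among them, or in 22 that make and mature it. An E-box was in 1 of these 11 (Xpot) and 2 of these 22 (Polr3c and Polr3e), against 8.09% of all genes.

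**Figure D5:**
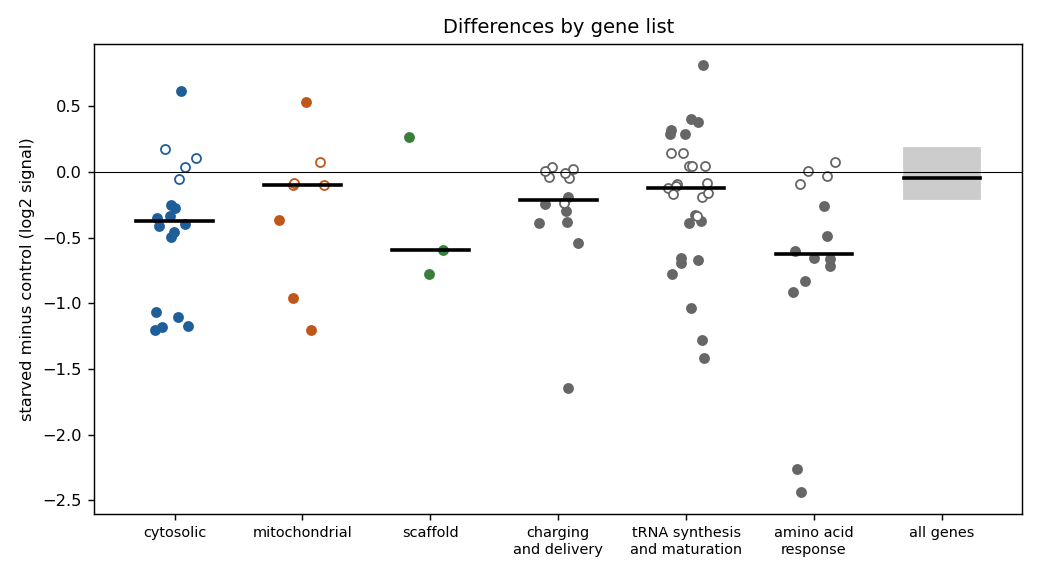
Starved minus control differences (log2, vertical axis) of the genes of each list, with the median as a bar. Filled points passed an adjusted p of 0.05, and the box for all genes spans the middle of the distribution, from -0.21 to 0.19. The cytosolic and amino acid response lists have medians of -0.37 and -0.63, against -0.05 for all genes.

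The directions above are relative to the scaling of the deposited values. Poly-A spike-ins, RNAs added before labelling, read 0.43 higher in starved than in control arrays, and hybridization spike-ins 0.19 higher. With arrays centred on the poly-A spike-ins, 17 of 18 cytosolic and 7 of 8 mitochondrial synthetases and 2 of 3 scaffold proteins were called lower and 0 higher, but so were 75.2% of all genes. Under this scaling the medians were -0.80 for the cytosolic synthetases, -0.52 for the mitochondrial ones and -1.02 for the scaffold proteins, against -0.47 over all genes. This centring moves all genes of an array alike, so relative to the median of all genes the cytosolic median lay at -0.33 and the mitochondrial one at -0.05 in both scalings.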

How the data were processed

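Gene expression was measured on short-oligonucleotide arrays with biotin-labelled RNA, 1 sample per array. The authors deposited 1 log2 signal per probe set and array, made with affy and RMA per the submitters' processing notes, which give no versions. RMA subtracts background, gives all arrays the same distribution and combines the probes of a set, so a change in total messenger RNA per cell is removed and folds of dim genes are compressed. Array signals hold no read depth, and the number of arrays limits the precision.

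Of 22690 probe sets, 20380 had 1 gene in the platform annotation and were used. Those with several genes (691) or none listed (1555) and 64 controls were left out of the tests. Each gene took its brightest probe set over all 6 arrays, with no filter on dim genes. Groups came from the sample titles. Both groups were compared gene by gene with limma 3.58.1 under R 4.3.3, using lmFit and then eBayes on group alone. Its two-sided p-values were adjusted by the Benjamini-Hochberg method for 12393 genes, and the procedure was tested on simulated data. Partner ratios had exact permutation tests. Promoters came from RefSeq (GRCm38.p6), with 20 of the 29 genes matched by symbol. Tables and plots used Python 3.11.15, pandas 2.3.3 and matplotlib 3.10.9. The members, gene lists and tests were chosen with earlier results of these data known. Named genes are all measured members, 6 further genes and up to 3 risen and 3 fallen genes of each pathway list by smallest adjusted p, and Slc7a11 and the markers were named after their values were seen.

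Alternatives to these choices averaged the probe sets of a gene, tested every probe set separately, dropped probe sets that can bind several transcripts or the dimmest 40% of genes, repeated the quantile normalization, or centred arrays on their medians or on either kind of spike-in. Others changed eBayes (trend and robust), weighted arrays, took the replicate number as a block, or left out 1 array (for the ratios, added after the data were seen).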

Additional observations from a re-analysis of the deposited data

How the results depend on the processing

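Across 489 combinations of a measured gene and an alternative, 461 kept their direction and side of the threshold, 5 lost a call, 14 gained one and 14 changed sign. Many of these had little room to change. Each probe set on its own was compared through the gene's brightest, so Ears2 counted as kept though its dimmer ones did not pass. The 14 genes with 1 probe set kept their difference when probe sets were averaged. Leaving out dim genes, the eBayes settings and the replicate block changed p-values but no difference. Of the sign changes, 4 also gained a call (Eprs, Kars, Qars and Sars2, called lower on poly-A spike-ins) and 1 also lost one (Aimp1, on poly-A spike-ins). The 13 cytosolic falls were between 12 and 13 without any 1 array, and 11 without probe sets that can bind several transcripts, where Farsa and Sars had no probe set left. The scaling moved most. Centred on poly-A spike-ins 9321 genes were lower and 860 higher, with 7 mitochondrial synthetases lower and 0 genes higher in any of the 3 groups of members. Centred on hybridization spike-ins these were 6102 and 1673 of all genes, with 6 mitochondrial synthetases lower and 0 scaffold proteins higher. Testing each probe set on its own gave 4183 lower and 4156 higher probe sets. That setting, leaving out the dimmest 40% of genes, and eBayes with trend and robust settings each gave 2 cytosolic synthetases higher, as Qars (in the first through a dimmer probe set) joined Vars. Without probe sets that can bind several transcripts 0 mitochondrial synthetases were higher, since Fars2 had none left. The change of Eprs over Ears2 was 0.46 with the mean of probe sets.

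Sign changes on poly-A spike-ins gave -0.39 for Eprs, -0.32 for Kars, -0.25 for Qars, -0.35 for Sars2, -0.16 for Aimp1, -0.42 for Eef1a1, -0.024 for Nsun2 and -0.044 for Rpp30. On hybridization spike-ins they gave -0.15 for Eprs, -0.082 for Kars, -0.0094 for Qars, -0.11 for Sars2 and -0.18 for Eef1a1, and on array medians -0.011 for Eprs and -0.042 for Eef1a1. Eprs was -0.028 with the mean of probe sets. Without 1 array the changes of sign were Eprs (lowest -0.013, highest 0.091), Farsb (-0.091 to 0.0089) and Eef1a1 (-0.018 to 0.026). Farsb was 0.016 without probe sets that can bind several transcripts. The cause of these changes of sign was not tested. Centring itself subtracts a shift from all genes of an array, which the settings without centring do not.

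Samples with the same replicate number in both groups did not deviate together (correlations of -0.0046, -0.022 and 0.0021). With the replicate number as a block, 13 cytosolic synthetases were lower and 1 higher, 3 mitochondrial ones lower and 1 higher, and 2605 of all genes lower and 2669 higher, so that no call of a member changed.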
